A study of Mus musculus with 12 samples.

Results

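The MYC, MAX and MXD network consists of 10 genes here, Myc, Mycn, Mycl, Max, Mxi1, Mxd1, Mxd4, Mnt, Mga and Mlx, chosen by name and looked up in the deposited lists of Jmjd2a (Kdm4a) and Jmjd2c (Kdm4c) peaks and in the table of start sites bound by both proteins. Of the 10 genes, 7 were named in at least 1 row of those 3 tables, out of 26219 RefSeq genes in all. Mycn, Mycl and Mnt were named in none, so no called peak lay nearest to them. Chromatin came from mouse leukaemic granulocyte-macrophage progenitors (L-GMP) transformed with MLL-AF9, a fusion oncoprotein of acute leukaemia, in lines derived from leukaemic mice. All cells, controls included, were C57BL/6 with the genotype Jmjd2a/b/cf/f;Rosa26::CreERT2, that is, with loxP-flanked alleles of the 3 demethylase genes and a tamoxifen-activated Cre recombinase. They grew in 20% serum with 10 ng/ml interleukin-3, untreated (Ctrl) or with 500 nM 4-hydroxytamoxifen (OHT) for 96 h. The 12 chromatin immunoprecipitation libraries form 8 groups, with 1 library per condition for Jmjd2a and for Jmjd2c and 2 per condition for each of 2 histone marks. The sources used here do not say how many lines or clones were used, nor which libraries entered the peak lists.

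The deposited tables hold positions only, with no height, score or value per library. Depth is therefore unknown, the deletion and the OHT effect could not be examined, the histone marks were not analysed here, and no replicate or test stands behind the values below. A gene was counted as carrying a protein if a called peak lay at most 1000 bp from any of its start sites in the deposited tables, and a gene without a call may still bind the protein. Whether the cells are progenitors could not be checked from peaks, which do not measure expression. Both proteins lay at 1 of 7 myeloid progenitor marker genes (Kit), against 24.6% of all RefSeq genes, and Cd34 had Jmjd2c alone and Flt3 Jmjd2a alone. Mpo, Elane, Ctsg and Fcgr3 had neither, as did 59.2% of all RefSeq genes. Both lay at 2 of 8 marker genes of other lineages (Klf1 and Epcam), near the 24.6% of all RefSeq genes with both.

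MYC, MYCN and MYCL are transcription factors that bind the E-box CACGTG as dimers with MAX and activate genes of growth and proliferation. MXD1, MXI1, MXD4 and MNT compete for MAX and recruit SIN3 corepressor and histone deacetylases to the same sites. MGA also dimerises with MAX and is the scaffold of a variant Polycomb complex, while MLX is a MAX-like protein that pairs with the glucose-sensing MONDO factors and with some MXD proteins. MYC supports the growth of MLL-rearranged leukaemia cells. Jmjd2a and Jmjd2c remove methyl groups from lysines 9 and 36 of histone H3.

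Both proteins lay at the starts of 4 of the 10 network genes, Myc, Max, Mxi1 and Mxd4. Jmjd2a alone lay at Mxd1 and Mga, Jmjd2c alone at Mlx, and neither at Mycn, Mycl and Mnt. Jmjd2a was thus called at 6 of 10 genes, against 27.4% of all RefSeq genes, and Jmjd2c at 5 of 10, against 38.0%. Both were called at 4 of 10, against 24.6%, and Jmjd2a alone at 2 of 10, against 2.88%. The count for Jmjd2a alone becomes 1, that of Mxd1, when RefSeq gene ends are added to the start sites, since Mga then has both. Over all RefSeq genes, the added ends raise the count with Jmjd2a from 7193 to 7585 and with both from 6439 to 6785. The 2.88% belongs to the start sites without these ends. Jmjd2c alone was called at 1 of 10, against 13.4%, and neither protein at 3 of 10, against 59.2%. All 11 promoter windows found for these genes were richer in CpG than the median promoter, which bears on these shares. Among the 9731 genes with at least 14 CpG in such a window of 300 bases, the lowest count in the network, called CpG-rich here, Jmjd2a was called at 50.7%, Jmjd2c at 70.0%, both at 46.2%, Jmjd2a alone at 4.52% and neither at 25.5%. Against those genes the counts of 6 and 4 of 10 lie near the background, and 5 of 10 for Jmjd2c lies below it. With 10 genes, 1 gene more or less moves each share considerably, and no test was made.

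**Figure D1:**
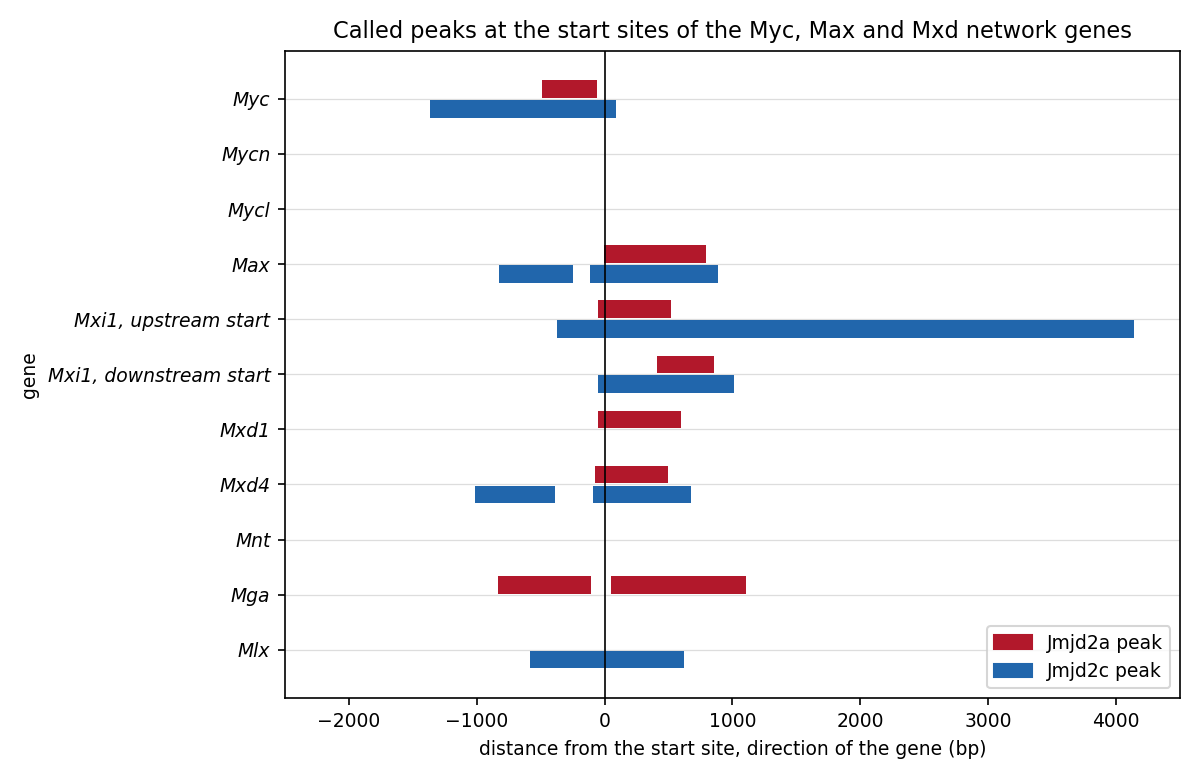
Called Jmjd2a peaks (red) and Jmjd2c peaks (blue) around the start site of each network gene, with the distance from the start in bp along the direction of the gene on the x axis. The Jmjd2a peak of Myc ends 57 bp before the start, those of Mga stand on both sides of a bare start, and Mycn, Mycl and Mnt have no peak.

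Myc had its Jmjd2a peak wholly upstream of the start site. The gene lies on chromosome 15 (61985341 to 61990361, plus strand, mm10). The Jmjd2a peak (61984853 to 61985284) was 432 bp wide and reached from 488 to 57 bp upstream. The Jmjd2c peak (61983977 to 61985427) was 1451 bp wide, reached from 1364 bp upstream to 86 bp downstream, and contained the whole Jmjd2a peak. The deposited annotation places the Jmjd2c peak over the promoter, the first exon and the 5′ untranslated region, and gives the Jmjd2a peak the start-site label alone. Of the 6940 start-site windows in the authors' deposited table of co-bound sites, 17.4% had the widest Jmjd2a peak wholly upstream, and its centre lay upstream in 38.3%. The median centre over all windows was 112.0 bp downstream for Jmjd2a and 113.5 bp downstream for Jmjd2c. At Myc the centres lay at -272.5 bp and -639.0 bp, negative values being upstream.

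The Jmjd2a peak at Myc was narrow for its list, with 13.9% of the 6908 Jmjd2a peaks near starts narrower, whereas 56.8% of the 9053 Jmjd2c peaks near starts were narrower than the one at Myc. Likeness to Myc was measured as the sum of the differences of the 4 peak edges from the start site. The most alike genes over all co-bound windows were Ndufa13, a respiratory chain subunit gene (424 bp in sum), and Slc9a5, a sodium-proton exchanger gene (471 bp), against a median of 2435 bp. Within 100 kb of the Myc start the single other peak of either protein was a Jmjd2c peak of 1409 bp over the start of Pvt1 (62037628 to 62039036). Pvt1 is a noncoding RNA gene next to Myc, and this peak began 52287 bp from the Myc start. The promoter sequence of Myc is not among those used here.

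Mycn and Mycl, the relatives of Myc, had no peak of either protein within 1000 bp of their starts. The nearest peaks to Mycn (chromosome 12, 12936093 to 12941836, minus strand) were a Jmjd2a peak 306766 bp and a Jmjd2c peak 306616 bp away, both named for Ddx1, an RNA helicase gene. No peak lay within 100 kb of Mycn. Mycl (chromosome 4, 122995588 to 123002490, plus strand) had 2 Jmjd2c peaks within 100 kb, at the starts of Trit1, a transfer RNA modification gene 20574 bp away, and Mfsd2a, a lipid transporter gene 34430 bp away. Its nearest Jmjd2a peak was 346271 bp distant. Both promoters were CpG-rich for unoccupied genes, with 14 CpG at Mycn and 22 at Mycl, against a median of 5.0 (interquartile range 2.0 to 12.0) over the 12471 promoters of genes with neither protein. Among the 9731 CpG-rich genes, 25.5% had neither protein.

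Max, the common partner, carried Jmjd2a inside the gene and Jmjd2c on both sides of its start. The gene lies on chromosome 12 (76937269 to 76962323, minus strand), with its start site at 76962248. The Jmjd2a peak (76961452 to 76962251) was 800 bp wide, from 3 bp upstream to 796 bp downstream. The first Jmjd2c peak (76961360 to 76962359) was 1000 bp wide, from 111 bp upstream to 888 bp downstream, and contained the Jmjd2a peak. A second Jmjd2c peak of 581 bp (76962496 to 76963076) began 248 bp upstream, beyond a gap of 136 bp. Both Jmjd2c peaks were narrow, since 23.1% and 4.58% of Jmjd2c peaks near starts were narrower. The most alike genes were Stard3 (113 bp in sum) and Cbfa2t2, a corepressor gene (114 bp), against a median of 1500 bp.

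CACGTG, the E-box that MYC-MAX dimers bind, spans the start site of Max. It begins 3 bases before the start (76962246 to 76962251) and lies under both proteins, and its outer base is also the last base of the Jmjd2a peak. The promoters of network genes that hold CACGTG are shown with it in capitals, each from 250 bases before the start to 10 bases after it, in the direction of the gene, from RefSeq on GRCm38.p6, the patch release of the mm10 assembly. They are Max (chr12:76962239-76962498, minus strand), Mlx (chr11:101087040-101087299, plus strand), Mnt (chr11:74830674-74830933, plus strand) and Mxd4 (chr5:34187701-34187960, minus strand).
Max: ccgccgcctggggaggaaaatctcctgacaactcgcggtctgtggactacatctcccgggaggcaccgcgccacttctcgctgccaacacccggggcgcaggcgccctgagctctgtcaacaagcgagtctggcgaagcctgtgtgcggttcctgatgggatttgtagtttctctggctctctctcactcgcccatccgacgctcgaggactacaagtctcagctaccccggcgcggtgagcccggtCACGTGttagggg
Mlx: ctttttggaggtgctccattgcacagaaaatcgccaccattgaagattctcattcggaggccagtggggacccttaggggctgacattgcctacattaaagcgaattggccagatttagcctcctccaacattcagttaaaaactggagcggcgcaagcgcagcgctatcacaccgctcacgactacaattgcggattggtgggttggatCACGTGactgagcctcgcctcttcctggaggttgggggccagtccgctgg
Mnt: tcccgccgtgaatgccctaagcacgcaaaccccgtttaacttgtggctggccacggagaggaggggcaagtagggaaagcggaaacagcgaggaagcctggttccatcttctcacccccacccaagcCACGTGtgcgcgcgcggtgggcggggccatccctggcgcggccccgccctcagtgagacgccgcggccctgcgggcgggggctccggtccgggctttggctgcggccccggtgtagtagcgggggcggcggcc
Mxd4: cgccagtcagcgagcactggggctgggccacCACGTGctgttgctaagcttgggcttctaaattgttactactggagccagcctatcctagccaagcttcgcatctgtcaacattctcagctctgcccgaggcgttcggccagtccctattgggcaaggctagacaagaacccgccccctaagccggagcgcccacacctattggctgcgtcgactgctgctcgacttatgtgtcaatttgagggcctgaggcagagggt

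CACGTG, which reads the same on both strands, occurred in the promoter window (250 bases before the start and 50 from it on) of 4 of the 9 network genes with a sequence, and in 4 of their 11 windows. It occurred in 7.15% of all 32851 promoters of the table, in 10.9% of those of genes with both proteins and in 5.72% of those of genes with neither. The 4 sites differed in their peaks. That of Max lay under both proteins, that of Mlx, which begins 40 bases before the start, under Jmjd2c alone, and that of Mnt, 123 bases before the start, under no peak. That of Mxd4, 219 bases before the start, lay in the gap between its 2 Jmjd2c peaks. The GC box GGGCGG, read on either strand with overlapping matches allowed, occurred in 7 of the 9 genes and 9 of the 11 windows. Every Mxi1 window held this box. It was found in 35.7% of all promoters, in 66.3% of those of genes with both proteins and in 27.0% of those of genes with neither. CACGTG and GGGCGG each hold a CpG, and all 11 windows were richer in CpG than the median promoter. Motif shares among CpG-rich genes alone were not computed. A match of letters is a description and shows no binding.

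Mxi1, which encodes a MAX-binding repressor, had the widest Jmjd2c peak of the network and a narrow Jmjd2a peak at each of its promoters. The gene lies on chromosome 19 (53310128 to 53373293, plus strand). At the upstream start (53310506) the Jmjd2c peak (53310137 to 53314650) was 4514 bp wide, from 369 bp upstream to 4144 bp downstream, and ranked 6 by width among the 9053 Jmjd2c peaks near starts. The Jmjd2a peak within it (53310458 to 53311026) was 569 bp wide and occupied 12.6% of its length, over the start. At the downstream promoter, where the co-bound table names start sites at 53329413 and 53330446, the Jmjd2c peak (53329362 to 53330426) was 1065 bp wide and covered the first of them. The Jmjd2a peak (53329820 to 53330265) was 446 bp wide and covered neither of these, lying 407 bp downstream of the first and 181 bp upstream of the second. A further start, from the RefSeq promoter sequences, lies between them at 53329695, with 49 CpG in its window, the most of any network promoter. The Jmjd2c peak covered that start, and the Jmjd2a peak began 125 bp downstream of it. The genes most like the upstream promoter, Plekhb2 and Phf12, still differed by 2034 and 2088 bp in sum (median over all windows 4246 bp). Those most like the downstream one, measured from its first start, were Carnmt1 and Wiz, at 184 and 187 bp (median 1988 bp). Measured from the second start they were Lsr and Hspa1b, at 344 and 378 bp (median 2468 bp).

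Mxd4, another MAX-binding repressor gene, was laid out like Max. It lies on chromosome 5 (34176580 to 34187710, minus strand) with its start at the gene end. The Jmjd2a peak (34187212 to 34187785) was 574 bp wide, from 75 bp upstream to 498 bp downstream, inside a Jmjd2c peak of 768 bp (34187035 to 34187802). A second Jmjd2c peak of 627 bp (34188100 to 34188726) began 390 bp upstream, beyond a gap of 297 bp. Of the 9951 genes with Jmjd2c, 363 (3.65%) had at least 2 Jmjd2c peaks within 1000 bp of 1 start site, as did Max and Mxd4 among the 5 network genes with Jmjd2c. The genes most like Mxd4 were 5031439G07Rik (75 bp in sum) and Fam83d, a mitotic spindle gene (83 bp), against a median of 1485 bp. At every co-bound start of Myc, Max, Mxi1 and Mxd4 the Jmjd2a peak lay wholly within the Jmjd2c peak, as it did in 61.6% of all co-bound windows.

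Mxd1, which encodes a repressor that rises as myeloid cells differentiate, carried Jmjd2a without Jmjd2c. Its Jmjd2a peak on chromosome 6 (86668564 to 86669212) was 649 bp wide and reached from 53 bp upstream to 595 bp downstream of the start at 86669159 (gene 86647044 to 86669234, minus strand). The nearest Jmjd2c peak lay 14704 bp away over the start of Snrnp27, a splicing factor gene. Across the genome 754 genes had Jmjd2a alone, with a median width of the widest Jmjd2a peak of 670.0 bp, and 89.0% of them had no Jmjd2c peak within 10000 bp. The peak of Mxd1 was close to that median. Its promoter had the highest GC content of the network, 76.7%, above 97.3% of promoters, and 39 CpG.

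Mnt, a broadly expressed MAX-binding repressor gene, had no peak of either protein, and its promoter held 32 CpG, a GC content of 70.7% and a CACGTG. The gene lies on chromosome 11 (74830806 to 74845725, plus strand). The nearest peaks of both proteins lay over the start of Mettl16, an RNA methyltransferase gene, 58763 bp away for Jmjd2a (2110 bp wide) and 59223 bp away for Jmjd2c (1500 bp wide). The promoter had more CpG than 90.5% of all promoters. Of the 9731 CpG-rich genes, 25.5% likewise had neither protein.

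**Figure D2:**
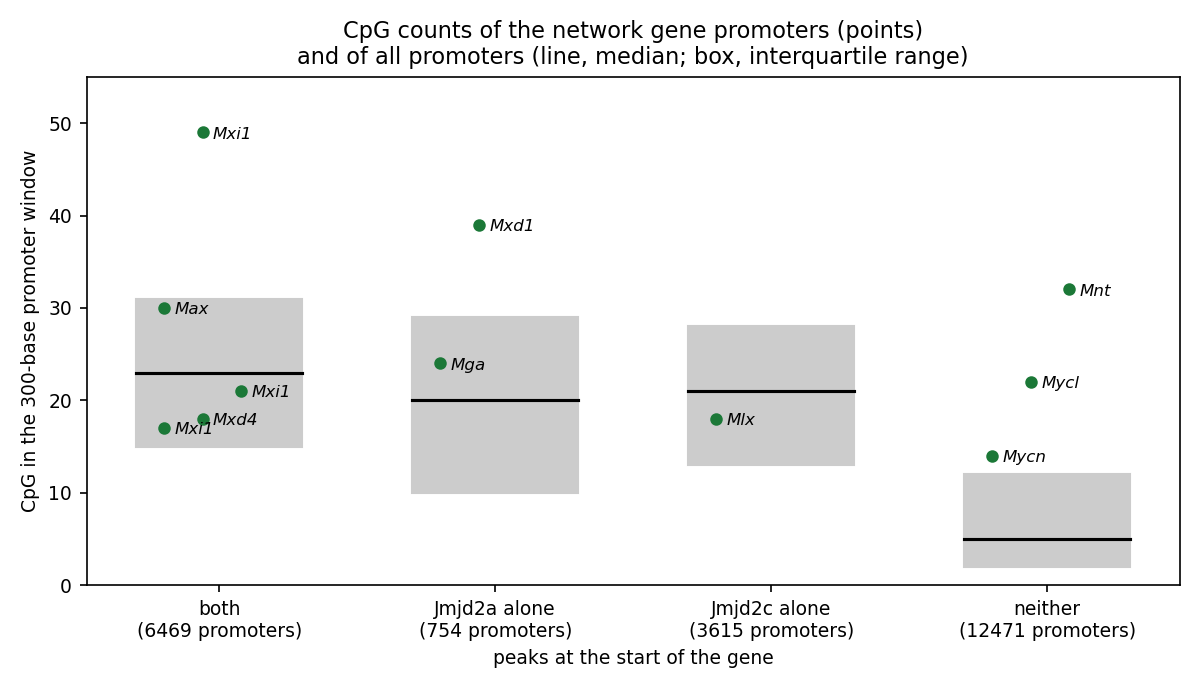
CpG count in the promoter window of 300 bases (y axis) for each promoter of the network genes (green points), by the peaks called at the gene (x axis), with the median (line) and interquartile range (box) of all promoters of each class. Mnt, with 32 CpG, Mycl, with 22, and Mycn, with 14, lie above the interquartile range of 2.0 to 12.0 for genes with neither protein. Of the 9731 genes with at least 14 CpG in a promoter, 25.5% had neither protein.

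Mga, which encodes the scaffold that joins MAX to a variant Polycomb complex, had 2 Jmjd2a peaks standing on both sides of its named start and no Jmjd2c peak there. The start lies on chromosome 2 at 119897228 (plus strand). The upstream Jmjd2a peak (119896394 to 119897123) was 730 bp wide and ended 105 bp before the start. The downstream one (119897277 to 119898333) was 1057 bp wide and began 49 bp after it. The bases between them numbered 153. Of the 7193 genes with Jmjd2a, 318 (4.42%) had peaks on both sides of a start that none covered, and 6 of these, Mga included, had no Jmjd2c. Among the 754 genes with Jmjd2a alone, 84.6% had a narrower widest Jmjd2a peak than Mga. The promoter (chr2:119896978-119897237, plus strand, GRCm38.p6, from RefSeq) is shown to locate the bare stretch, with bases under no Jmjd2a peak in capitals.
Mga: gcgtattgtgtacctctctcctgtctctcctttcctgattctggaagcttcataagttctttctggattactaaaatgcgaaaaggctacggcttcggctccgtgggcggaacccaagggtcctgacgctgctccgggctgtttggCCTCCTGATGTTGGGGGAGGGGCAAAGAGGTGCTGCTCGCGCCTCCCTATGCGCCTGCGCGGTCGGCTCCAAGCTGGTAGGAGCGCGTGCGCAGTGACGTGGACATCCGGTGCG

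A further pair of peaks was named for Mga upstream of the start, the Jmjd2a peak 23637 bp from it, where the deposited annotation has no feature. The Jmjd2a peak (119872102 to 119873591) was 1490 bp wide and lay entirely inside the Jmjd2c peak (119872098 to 119873768), which was 1671 bp wide. Together they shared 89.2% of their joint length, which ranked 28 among the 385 pairs of overlapping peaks more than 10000 bp from a start site (median 59.0%). The RefSeq gene table on GRCm38.p6, which includes predicted transcripts, begins Mga at 119872503, under both of these peaks. When the outer gene ends of that table were added to the start sites, an alternative chosen after seeing the data, Mga counted among the genes with both proteins and the network count rose from 4 to 5. Over all RefSeq genes the count with both rose from 6439 to 6785. Jmjd2a alone at Mga therefore holds for the start site that the deposited files name.

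Mlx carried Jmjd2c alone. Its Jmjd2c peak on chromosome 11 (101086710 to 101087913) was 1204 bp wide and reached from 580 bp upstream to 623 bp downstream of the start at 101087290 (gene 101086707 to 101092207, plus strand). The nearest Jmjd2a peak lay 7633 bp away, over the start of Psmc3ip, a recombination factor gene. The region was dense in called peaks, with 7 Jmjd2a and 9 Jmjd2c peaks within 100 kb, the highest numbers among the 10 genes for each protein.

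Peaks at the network genes were mostly narrower than other peaks near starts. The 8 Jmjd2a peaks near their starts ranged from 432 to 1057 bp with a median of 611.5 bp, against 761.0 bp (interquartile range 530.0 to 1062.0) over all 6908, and 2 of them exceeded that median. The 8 Jmjd2c peaks ranged from 581 to 4514 bp with a median of 1032.5 bp, against 1366.0 bp (interquartile range 1031.0 to 1729.0) over all 9053, and 2 exceeded that median, those at Myc and at the upstream start of Mxi1. Width depends on a threshold and depth that are unknown and is no measure of signal. A peak of the other protein overlapped 5 of the 8 Jmjd2a peaks, against 86.9% of all Jmjd2a peaks near starts, and 5 of the 8 Jmjd2c peaks, against 61.6%.

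**Figure D3:**
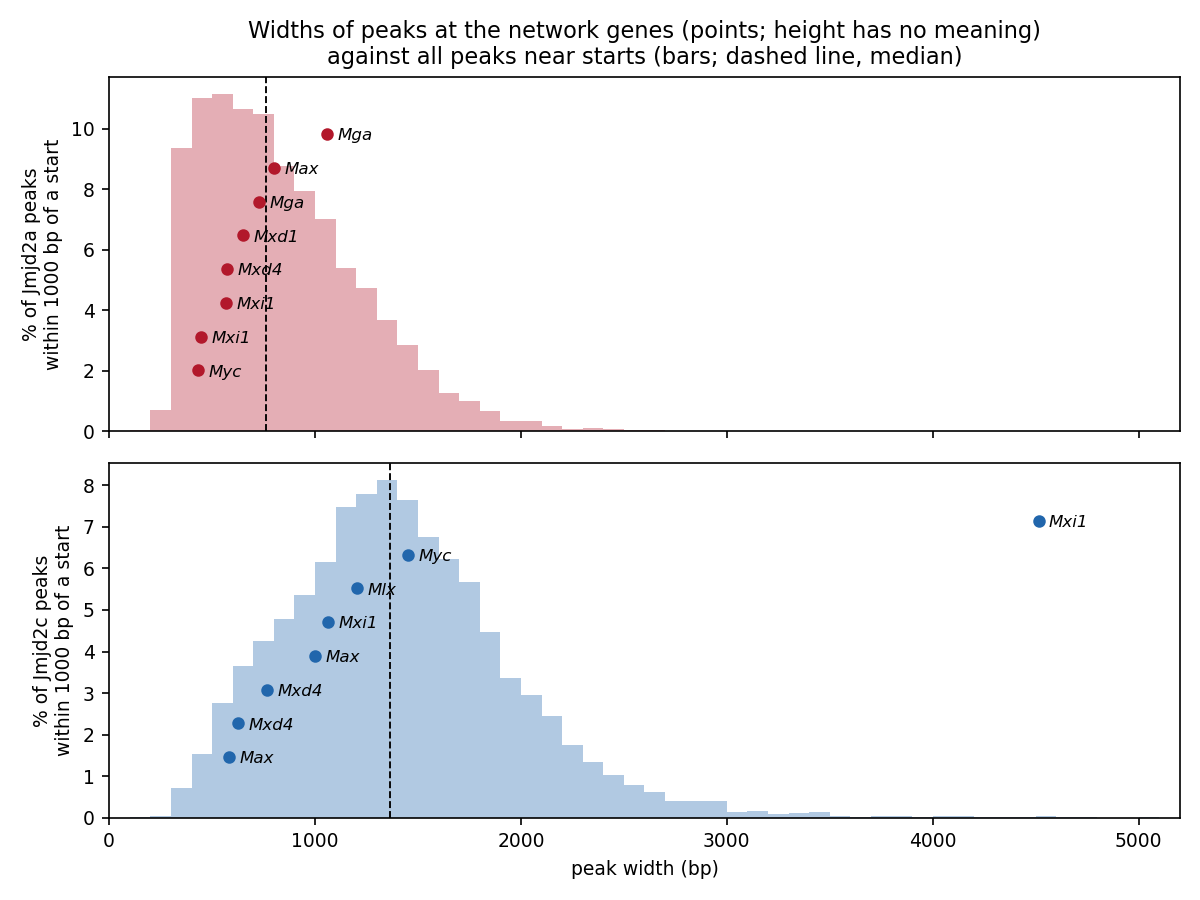
Width in bp (x axis) of the peaks within 1000 bp of a start site at network genes (points, with gene names) and of all such peaks (bars, percent of peaks in bins of 100 bp; dashed line, median), for Jmjd2a above and Jmjd2c below. In each list 2 of the 8 points lie to the right of the median, and the Jmjd2c peak of Mxi1 stands at 4514 bp.

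The rest of the network was read from lists of genes that share its partners, cofactors and targets. Widths given for these lists are of the widest peak of each protein near any start of the gene. Such peaks need not overlap, and those printed for Mlxip and Sin3a do not. Of 5 further MAX and MLX network genes, Mxd3 (Jmjd2a peak 875 bp, Jmjd2c peak 1703 bp) and Mlxip, which encodes the MLX partner MONDOA (727 and 1117 bp), carried both proteins. Mlxipl, which encodes the MLX partner ChREBP, carried Jmjd2a alone (1050 bp), and the Myc relatives Bmyc and Mycs carried neither. The 2 of 5 genes with both lie near the 46.2% of CpG-rich genes and the 24.6% of all genes with both.

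Genes of the machinery that the MXD and MGA proteins recruit had the highest shares of both proteins among the 7 related lists. Of 19 SIN3 corepressor genes, all had Jmjd2c and 16 had both proteins, among them the scaffold gene Sin3a (698 and 2195 bp for Jmjd2a and Jmjd2c), Sap30 (925 and 2257 bp), Sap30l (860 and 2295 bp) and Ing2, a histone reader gene (525 and 3114 bp). Ncor1, Rbbp7 and Arid4b had Jmjd2c alone. Jmjd2c lay at 70.0% of CpG-rich genes and 38.0% of all genes. All 12 listed genes of the Polycomb complex that contains MGA and MAX had both proteins, against 46.2% of CpG-rich genes and 24.6% of all genes. The list leaves out Max, which had both, and Mga, which had Jmjd2a alone at its named start. The 12 include Rnf2, the ubiquitin ligase gene of the complex (794 and 1981 bp), the adaptor genes Yaf2 (1450 and 2221 bp) and Rybp (768 and 1924 bp), and the deacetylase gene Hdac2 (1649 and 1776 bp). Hdac1 and Hdac2 stand in both lists, and Wdr5 in the Polycomb and the cofactor list, so the lists are not independent. The lists were also chosen with earlier results of these data known, so their order is a description only.

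Of 18 genes of MYC turnover, 17 had Jmjd2c and 14 had both proteins, with Fbxw7, the ubiquitin ligase gene for MYC (1235 and 2725 bp for Jmjd2a and Jmjd2c), the kinase genes Gsk3a (481 and 2572 bp) and Plk1 (1848 and 2500 bp), and the phosphatase inhibitor gene Cip2a (1204 and 2450 bp). Usp36, a deubiquitinase gene, had Jmjd2a alone (734 bp). The turnover shares, 94.4% for Jmjd2c and 77.8% for both, stand beside 70.0% and 46.2% of CpG-rich genes and 38.0% and 24.6% of all genes. Of 20 MYC cofactor genes, 19 had Jmjd2c, and 9 had Jmjd2a in addition, such as the acetyltransferase gene Crebbp (350 and 1832 bp for Jmjd2a and Jmjd2c), the adaptor gene Trrap (1035 and 1743 bp) and the remodeller gene Smarcb1 (1030 and 1682 bp). Ruvbl2, a helicase gene of the same group, had neither. The cofactor list, with 9 of 20 genes each for both proteins and for Jmjd2a, was near the 46.2% and 50.7% of CpG-rich genes. For Jmjd2c, 19 of 20 stands beside 70.0%. Over all genes the shares were 27.4% for Jmjd2a, 38.0% for Jmjd2c and 24.6% for both.

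Among 37 known MYC target genes Jmjd2c lay at 29 (78.4%), against 70.0% of CpG-rich genes, and Jmjd2a at 16 (43.2%), against 50.7%. Both lay at 13 (35.1%), against 46.2%, with Ldha, a glycolytic enzyme gene (383 and 2822 bp for Jmjd2a and Jmjd2c), the cell cycle factor gene E2f2 (970 and 2185 bp), the cap-binding factor gene Eif4e (744 and 1988 bp) and Rrs1, a ribosome assembly gene (559 and 1952 bp). Over all genes the shares were lower, at 38.0% for Jmjd2c, 27.4% for Jmjd2a and 24.6% for both. Odc1, Tert and Shmt1 (3 of 37) had Jmjd2a alone, against 4.52% of CpG-rich genes and 2.88% of all genes. Ncl, Nme1, Ppan, Tfrc and Pcna (5 of 37) had neither, against 25.5% of CpG-rich genes and 59.2% of all genes. Of 15 other E-box-binding factor genes, 11 had Jmjd2c and 8 had both, the widest Jmjd2c peaks being at Tfap4 (3402 bp), Usf2 (2450 bp), Clock (2030 bp) and Arntl (2019 bp). Those shares, 73.3% and 53.3%, stand beside 70.0% and 46.2% of CpG-rich genes and 38.0% and 24.6% of all genes. For both proteins, 16 of 19 corepressor, 14 of 18 turnover and 12 of 12 Polycomb genes lie above the 46.2% of CpG-rich genes. The target list lies below that share and above the 24.6% of all genes. CpG counts of the listed genes are not given here, and no test was made.

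**Figure D4:**
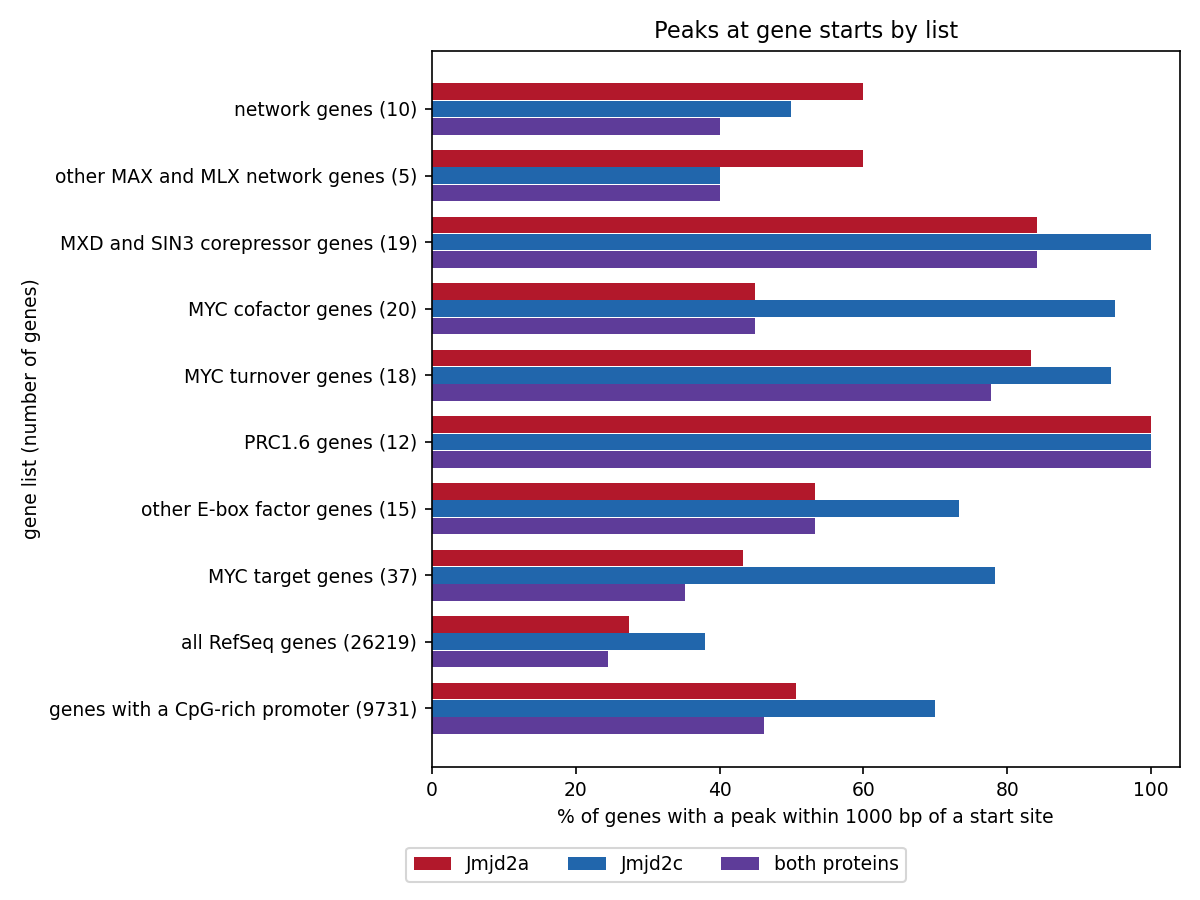
Percent of genes (x axis) with a Jmjd2a peak (red), a Jmjd2c peak (blue) or both (purple) within 1000 bp of a start site, for the 10 network genes, 7 related lists, all 26219 RefSeq genes and the 9731 genes with at least 14 CpG in a promoter. All 12 genes of the Polycomb list carry each protein, against 6, 5 and 4 of the 10 network genes for Jmjd2a, Jmjd2c and both.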

How the data were processed

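Jmjd2a and Jmjd2c peak lists and a table of start sites bound by both were read as the authors deposited them; groups came from the sample titles. The genome build was mm10, and the tools included bedtools 2.25.0, Bowtie 0.12.7 and SAMtools, per the submitters' processing notes. The sources used here do not give the peak caller, its threshold, the control library or any pooling. Per the file headers, the deposited columns are positions and distances in bp. Start positions were read as counting from 0, from start-site entries of 1 bp, and are printed counting from 1. Where a peak covers several start sites and as many accessions are listed, they were paired in order, and otherwise every site was given to every gene.

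A peak within 1000 bp of a start was called near. Background genes have a curated RefSeq accession and lie on X, Y or a numbered chromosome, and calculations start from the sites named in the files, so a gene near a peak named for a neighbour can be missed. Peaks overlapping by at least 1 bp were called shared. Promoter sequences (GRCm38.p6) were found for 9 of 10 network genes. The named genes are the 10, up to 4 of each list with both proteins and the widest Jmjd2c peak, and the 2 genes most like each promoter with both; 1 gene that this rule names is not reported here, and other genes were named after their values were seen. The members and lists were chosen with earlier results of these data known. Alternatives were other windows, wider peaks, other start sites, overlaps and motifs. Steps were tested on simulated data. Python 3.11.15, numpy 2.4.6, pandas 2.3.3 and matplotlib 3.10.9 were used.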

Additional observations from a re-analysis of the deposited data

How the results depend on the processing

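Of 65 alternatives tried for 12 counts, 52 stayed within 1.5 times the value reported. Windows of 500 and 5000 bp and the start sites of each protein's own list left the network counts at 6 for Jmjd2a, 5 for Jmjd2c and 4 for both. Keeping the wider 50% of each peak list, which removes most network peaks because they are narrow, left 2 genes with Jmjd2a, 2 with Jmjd2c and 0 with both. Of all 26219 genes, that setting left 4324 with Jmjd2a, 6008 with Jmjd2c and 2627 with both. The network peaks shared by both proteins then numbered 2, against 12 of 18. In that setting both proteins lay at 1 further MAX and MLX gene, 7 corepressor genes, 3 MYC cofactor genes, 5 turnover genes, 7 Polycomb genes, 4 other E-box factor genes and 3 MYC target genes. Promoters holding CACGTG or either of the related E-boxes CATGTG and CACGCG, each with its reverse complement, were found for 7 of 9 network genes. Of all promoters, 28.1% held one of these. CACGTG in the 150 bases before the start was found for 2 network genes, without Max, whose site crosses the start. In all, 1411 of the 32851 promoters held it there. The alternatives chosen after seeing the data were the starts of the RefSeq promoter table, which lacks Myc and gave 3 network genes with both, and the added gene ends, which gave 5 with Mga. From the starts of the promoter table, both proteins lay at 11 of 19 corepressor, 11 of 18 turnover, 9 of 12 Polycomb and 8 of 20 cofactor genes. They lay at 6 of 15 other E-box factor genes, 10 of 37 MYC target genes and 2 of 5 further MAX and MLX genes. Listed genes absent from the promoter table count as without a peak in that setting, and their number is not given here. The count of all genes with both was 5389 from the starts of the promoter table, against 6439, and 6785 with the added gene ends. No paired analysis was possible because the deposited tables hold no value per library, and leaving out a library was not possible for the same reason. Unknown depth and threshold limit all counts, as weak sites can be missed.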
